A study of Mus musculus with 37 samples.

Results

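Complexes III, IV and V are the last steps of mitochondrial respiration. Complex III passes electrons from ubiquinol to cytochrome c, complex IV (cytochrome c oxidase) passes them from cytochrome c to oxygen, and both move protons out of the matrix. Complex V (ATP synthase) lets the protons back in through its membrane part, Fo, and makes ATP in its catalytic head, F1. In neurons most ATP comes from this chain. The catalytic subunits of complex IV and a part of Fo are encoded by mitochondrial DNA. The genes described here encode the nuclear subunits, which are made in the cytosol and imported. Several small subunits of complexes IV and V exist as paralogs, of which Cox6a2 and Cox7a1 are best known from heart and skeletal muscle.

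The members were all probes whose platform gene symbol begins with Uqcr, Cox4, Cox5, Cox6, Cox7, Cox8 or Atp5, without Cox6b2 and Cox8b. This gave 40 probes of 36 genes out of 24613 probes, measured on 37 arrays. Complex III had 7 probes of 7 genes, complex IV had 17 probes of 15 genes and complex V had 16 probes of 14 genes. Every gene selected by its symbol encodes a subunit of 1 of these complexes.

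All 37 samples belong to 1 group, so no treatment or genotype was compared. They are left hippocampi, punched from frozen brain, of female CSS15F2 mice aged 3 to 4 months, with 1 mouse and 1 Illumina MouseRef-8 array per sample. CSS15F2 is an intercross of a chromosome substitution strain with host C57BL/6J and donor A/J, in which chromosome 15 is the segregating chromosome. Of the 36 genes, Cox6c and Atp5g2 lie on chromosome 15. The genotype of single mice was not used here. Levels are log2 signals after background correction and quantile normalization, and a difference of 1 is a doubling. Levels of different probes were not compared, since each probe has its own brightness.

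The arrays differed in how much they detected. A probe counted as detected on an array at a detection p-value under 0.01. The array with the fewest detected probes had 5281, the median array 8704 and the highest 10724. The 95th percentile of the deposited signal ranged from 321.6 to 2609.6. The arrays lay on 13 chips, whose numbers form 2 ranges, of which the first holds 26 arrays on 9 chips and the second 11 arrays on 4. Differences between mice and between arrays cannot be told apart by the design. Of the markers fixed for hippocampal neurons, 7 probes of 6 genes were detected on at least 19 arrays, among them Prox1, Zbtb20, Wfs1 and Camk2a. Grin2a, Grin2b and Neurod6 were detected on no array. In bulk tissue, fewer cells of a type and less RNA per cell give the same signal and cannot be distinguished.

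Promoter sequence is shown for the 3 members with the strongest negative and the 1 member with the strongest positive relation to the number of detected probes described further on, among genes with an entry in the RefSeq promoter table (GRCm38.p6). Each line gives the 250 bases before the annotated start, 5′ to 3′ on the strand of the gene. Capitals mark matches, on either strand, to motifs of factors known for respiratory genes: GCGCA and GCGC with any 1 base between them (NRF1), CCGGAAG (ETS factors such as GABP), AAGATGGC (YY1) and GGGCGG (SP1). Matches of different motifs were allowed to overlap.
Atp5g2: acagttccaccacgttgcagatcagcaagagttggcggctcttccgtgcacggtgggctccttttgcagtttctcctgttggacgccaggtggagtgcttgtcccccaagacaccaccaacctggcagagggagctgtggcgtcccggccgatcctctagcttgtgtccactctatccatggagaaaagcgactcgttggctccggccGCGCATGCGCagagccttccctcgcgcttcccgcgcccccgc
Cox7a1: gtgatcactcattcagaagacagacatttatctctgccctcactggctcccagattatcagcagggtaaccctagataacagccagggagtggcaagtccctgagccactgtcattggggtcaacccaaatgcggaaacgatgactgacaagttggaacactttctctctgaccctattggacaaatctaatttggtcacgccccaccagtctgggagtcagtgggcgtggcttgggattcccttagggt
Cox6b1: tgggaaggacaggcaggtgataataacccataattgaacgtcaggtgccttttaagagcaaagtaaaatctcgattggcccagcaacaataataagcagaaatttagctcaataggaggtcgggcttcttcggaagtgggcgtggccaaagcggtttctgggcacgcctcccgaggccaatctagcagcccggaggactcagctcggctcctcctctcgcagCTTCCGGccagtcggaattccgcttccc
Atp5b: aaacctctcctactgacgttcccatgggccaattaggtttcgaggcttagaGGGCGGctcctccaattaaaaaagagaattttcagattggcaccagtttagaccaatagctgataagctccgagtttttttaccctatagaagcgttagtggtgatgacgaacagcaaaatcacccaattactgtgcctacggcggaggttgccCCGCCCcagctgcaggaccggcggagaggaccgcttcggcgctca
Atp5g2 lies on the minus strand at chr15:102671048-102671297 and carried 1 NRF1 match. Cox7a1 lies on the plus strand at chr7:30183921-30184170 and carried no match in these letters. Cox6b1 lies on the minus strand at chr7:30626115-30626364 and carried 1 ETS match close to the start. Atp5b lies on the plus strand at chr10:128083057-128083306 and carried 2 SP1 matches.

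Promoters of 26 member genes were in the table, as 29 entries of 300 bases (250 before and 50 after the start). An NRF1 match was present in 6 of the 29 entries (20.7%) and in 4.6% of all 32851 entries of the table. An ETS match was present in 9 (31% against 8.86%), a YY1 match in 3 (10.3% against 2.75%) and an SP1 match in 10 (34.5% against 35.7%). These shares describe letters in a window and were given no test.

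Detection came first. Of the 40 member probes, 32 were detected on at least 19 arrays and 28 of these on all 37. The 8 others have only a bound. Uqcrfs1, the Rieske iron-sulfur protein of complex III, Uqcrq, a small subunit of complex III, and Cox8c, a paralog of Cox8a, were not detected on any array. The second probes of Atp5j and Atp5md were likewise never detected, although the first probe of each gene was. Cox7b2, a paralog of Cox7b, was detected on 1 array. Atp5e, the epsilon subunit of F1, and Atp5pb, the b subunit of the Fo stalk, were each detected on 10 arrays. A probe not detected leaves the level of its transcript unknown, not absent.

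The spread over mice differed widely among the 32 probes. The median SD over mice was 0.39 for the members and 0.44 for all 8541 probes detected on at least 19 arrays, and 13 of the 32 members lay above the latter value. Without quantile normalization these medians were 0.47 and 0.68, and 5 members lay above. The lowest member SD was 0.14 and the highest 1.04. With quantile normalization the core subunits had mostly small SDs, of 0.27 and 0.35 for both detected core proteins of complex III and a median of 0.27 for the 4 detected F1 subunits. Without quantile normalization this order turned, with medians of 0.61 for the complex III core against 0.46 for its small subunits, and of 0.60 for F1 against 0.54 for Fo. With quantile normalization the 6 largest SDs were those of small subunits of complex IV and of Fo subunits.

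**Figure D1:**
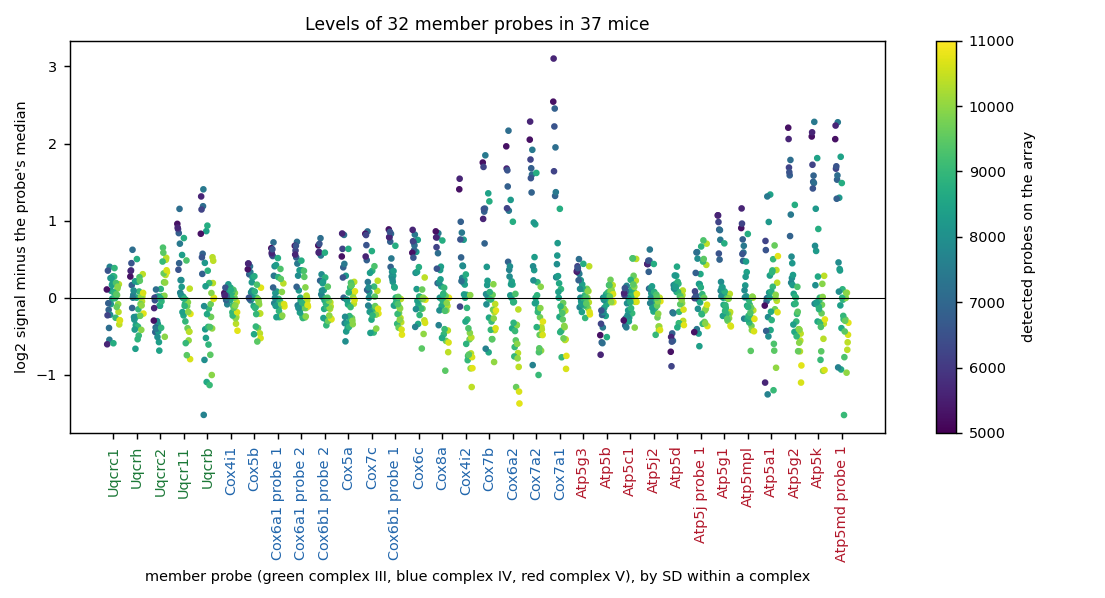
Log2 signal of each of the 32 member probes detected on at least 19 arrays, minus the probe's own median, with 1 point per mouse coloured by the number of probes detected on its array. Cox7a1 reaches from its median of 7.22 to 10.32 in mouse 20, which had 5631 detected probes, while Cox4i1 stays within a range of 0.60.

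Cox4i1 is the common form of subunit 4, the largest nuclear subunit of complex IV. Its level had a lowest value of 13.75, a median of 14.18 and a highest value of 14.35. Its SD of 0.14 was the smallest of the members, larger than that of only 0.1% of all tested probes. Mouse 126, with the most detected probes, was lowest and mouse 104 highest. Its paralog Cox4i2, known from lung and from pericytes in the brain, had a lowest level of 5.46, a median of 6.62 and a highest of 8.17, and was detected on 36 arrays. The highest Cox4i2 values came from mice 20 and 86, which had the fewest detected probes.

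Cox7a1, the muscle form of subunit 7a, had the largest SD with quantile normalization, 1.04. Without it the SD was 0.56, below those of Atp5a1 (0.85) and Uqcrb (0.78), and with the authors' values it was 0.66, below that of Atp5g2 (0.90). Its lowest level was 6.30, its median 7.22 and its highest 10.32, a 16.3-fold range. A mixture model split the mice into 28 with levels of 6.30 to 7.93 and 9 with levels of 8.37 to 10.32. The 9 mice were numbers 20, 31, 43, 61, 75, 78, 86, 101 and 151. The groups were formed from these same levels, so the gap between them is no test. Whether other tested probes set the same mice apart was not examined. Cox7a2, the form of subunit 7a that most tissues use, had levels of 7.66 to 9.19 in 26 mice and of 9.62 to 10.95 in 11. The 11 mice held all 9 of the Cox7a1 group, plus mice 77 and 104. Both paralogs of subunit 7a were high in the same mice.

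Cox6a2, the muscle form of subunit 6a, ranged from 8.13 over a median of 9.50 to 11.67, an 11.6-fold range. Mouse 43 had the highest value and mouse 126, with the most detected probes, the lowest. No separate groups of mice were found for it. The common form Cox6a1 was measured by 2 probes, with SDs of 0.29 and 0.31. Probe 1 of Cox6a1 ranged from 12.72 to 13.69 with a median of 12.97. Mouse 43 was highest in both genes, and mice 20, 31, 61, 86 and 101 were among the highest in both.

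Among the other subunits of complex IV, Cox7b had a lowest level of 4.88, a median of 5.72 and a highest of 7.57, and was detected on only 26 arrays. Its higher group of 10 mice, at 6.42 to 7.57, held all 9 of the Cox7a1 group. Cox6c, encoded on chromosome 15, ranged from 12.11 to 13.65 with an SD of 0.40, near the median SD of all tested probes. Cox8a had an SD of 0.46. Cox5b, which binds zinc on the matrix side, had an SD of 0.27. The SDs of Cox5a, Cox6b1 and Cox7c lay between 0.33 and 0.40. The high mice were largely shared, as the plot of standardized levels shows.

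In complex V, the 3 genes for subunit c, which forms the rotating ring of Fo and is the same mature protein from each, differed in spread. Atp5g2, encoded on chromosome 15, had a lowest level of 9.40, a median of 10.50 and a highest of 12.71, with an SD of 0.88. Atp5g1 had a lowest level of 12.03, a median of 12.41 and a highest of 13.47, with an SD of 0.43. Atp5g3 had a lowest level of 13.47, a median of 13.74 and a highest of 14.24, with an SD of 0.21. All 3 were highest in mice of the Cox7a1 group. For Atp5g1 the mixture model gave the same 9 mice, at 12.90 to 13.47 against 12.03 to 12.61 in the other 28.

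Atp5md probe 1 (the DAPIT subunit) and Atp5k (subunit e) lie at the membrane part of the enzyme, where dimers form. Atp5md probe 1 ranged from 4.98 over a median of 6.50 to 8.77 and was detected on 34 arrays. Atp5k ranged from 5.33 over a median of 6.27 to 8.55. For both genes the mixture model set apart 11 mice, the same 11 as for Cox7a2. These levels were 7.78 to 8.77 for Atp5md probe 1 and 7.17 to 8.55 for Atp5k. Atp5mpl, a small Fo protein, had an SD of 0.45, and Atp5j2 (subunit f) one of 0.28. Atp5j probe 1, coupling factor 6 of the stalk, had an SD of 0.37.

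Subunits of the catalytic head differed among themselves. Atp5b, the beta subunit that makes ATP, had a lowest level of 13.34, a median of 14.07 and a highest of 14.31, with an SD of 0.24. Its 7 lowest mice, at 13.34 to 13.74, were all in the Cox7a1 group. Atp5d, the delta subunit, had a lowest level of 10.94, a median of 11.83 and a highest of 12.23, with mouse 61 lowest. Atp5c1, the gamma subunit of the shaft, had an SD of 0.24 and no groups. Atp5a1, the alpha subunit, had an SD of 0.62 and was detected on 35 arrays.

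In complex III, Uqcrb, a small subunit near the ubiquinone site, had the largest SD, 0.72, with a lowest level of 6.27, a median of 7.79 and a highest of 9.20. Mouse 151 was highest and mouse 29 lowest. Uqcr11, another small subunit, ranged from 11.27 to 13.22 with an SD of 0.50. Uqcrh, the hinge protein that binds cytochrome c1, had an SD of 0.31. The core proteins Uqcrc1 and Uqcrc2 had levels of 11.45 to 12.46 and of 11.03 to 12.37. Mice 20, 75 and 151 were low in Uqcrc1 and high in Uqcrb and Uqcr11.

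Levels were also counted mouse by mouse, with quantile normalization. Of the 26 probes other than Uqcrc1, Uqcrc2, Atp5a1, Atp5b, Atp5c1 and Atp5d, 22 to 26 lay above their own median in 12 mice, and 1 to 17 in the other 25. No mouse lay between 17 and 22. The probes set aside include Uqcrc2, Atp5b and Atp5d, which had called positive slopes on the number of detected probes, described further on. The same count was not made over all tested probes, so no background stands beside it. Counted over all 32 members, 22 to 28 lay above in these 12 mice and 3 to 20 in the other 25. Without quantile normalization this division of the 32 was not seen. There, 3 to 31 lay above their own median in the same 12 mice and 0 to 28 in the other 25. Mouse 104 then had 3 above in place of 25, and mouse 126 had 28 in place of 5. With quantile normalization, in the 12 mice, 0 to 4 of the 6 core probes lay above their median, and in the other 25 mice 2 to 5 did. The 12 arrays were spread over 8 chips and had 5281 to 8704 detected probes, while the other 25 had 7665 to 10724.

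**Figure D2:**
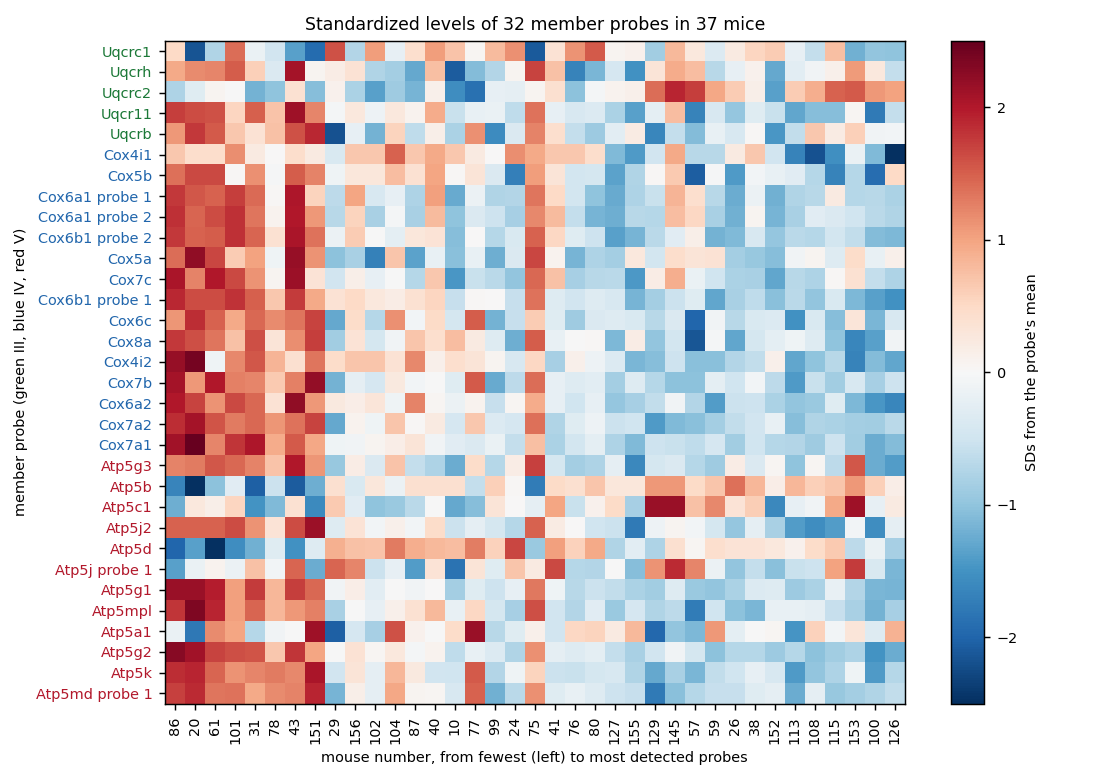
Standardized levels (SDs from the probe's mean) of the 32 member probes in rows, by complex, and of the 37 mice in columns, ordered by the number of detected probes. Most rows of complexes IV and V are high in the 8 mice at the left and in mouse 75, whose array had 8704 detected probes, and the 7 lowest values of Atp5b lie among these mice.

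The mixture model found groups of mice for 8 of the 32 members with quantile normalization, for 7 with the authors' normalized values, and without quantile normalization only for Atp5g2 and Atp5d. The model was not run over all tested probes, so the share of all probes with such groups is not known. With each chip centred on its mean it found none. The groups of Cox7a1, Cox7a2, Atp5g1, Atp5k and Atp5md probe 1 were therefore seen only with quantile normalization or the authors' normalization. They were not seen with arrays only centred on their median or with chips centred. The mice of the Cox7a1 group were not spread evenly over chips. Of the 9 mice, 4 shared chip 3, which held 6 arrays, and the other 5 lay on 5 different chips. Their arrays had 5281 to 8704 detected probes, against 7665 to 10724 for the other 28 mice, so the number of detected probes moved with the levels. Mouse 75, with 8704, had the median number of all arrays. The relation to the number of detected probes over all members is given further on.

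The first comparison was between chips, in a limma F test over 13 chips. None of the 32 members was called at an adjusted p under 0.05, where 0.796% of all 8541 tested probes (68) were called. At an unadjusted p under 0.05 there were 15 members and 1397 of all probes. The smallest member values were those of Cox5b (adjusted p = 0.08), Uqcr11 (adjusted p = 0.09) and Atp5a1 (adjusted p = 0.11). Without quantile normalization, Atp5a1 (adjusted p = 0.03) and Atp5md probe 1 (adjusted p = 0.03) were called, beside 1.8% of all probes. Without the arrays under 7000 detected probes, Cox8a, Atp5a1 and Atp5md probe 1 were called, beside 1.99%. With the authors' normalized values only Cox5b was called (adjusted p = 0.03), beside 0.902%.

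The second comparison was between these ranges of chip numbers, called the sets of 26 and of 11 arrays, with the chip as a random block in limma. No member and no other probe was called (0% of all probes), and 2 members, Cox8a and Cox5b, were among the 419 probes with an unadjusted p under 0.05. The median difference, the set of 11 minus the set of 26, was -0.18 log2 over the members and 0.01 over all tested probes. Cox8a differed by -0.42 ± 0.17 (SE, adjusted p = 0.78). All 15 complex IV probes had differences below the median of all probes.

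The third comparison asked how each level moved with the number of detected probes, as a slope in log2 per 1000 detected probes from limma. With quantile normalization, 24 of the 32 members had a called negative slope, where 29.4% of all tested probes had one, and 3 had a called positive slope, where 37.6% had one. The median slope was -0.18 over the members and 0.03 over all probes. Without quantile normalization nearly every tested probe rose, relative to the median of its array, on arrays with more detected probes. That median is taken over all probes of the array, most of them not detected. The common direction is therefore set in part by this scaling and is no separate result. The median slope of all probes shifted to 0.40, and slopes are therefore also given relative to that median slope. Relative to it, the members' median was -0.21 with and -0.42 without quantile normalization, and 28 of the 32 lay below it under either setting.

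By part, all 15 complex IV probes had a called negative slope with quantile normalization. Of the 8 Fo probes 7 did, all but Atp5j probe 1, and of the 3 small subunits of complex III 2 did, Uqcr11 and Uqcrb, although the slope of Uqcrb turned positive (0.25) without quantile normalization. Of the 4 F1 subunits none did. Atp5b and Atp5d had called positive slopes, and the median F1 slope was 0.08. Of both core proteins of complex III, Uqcrc2 had a called positive slope and Uqcrc1 one of 0.01 ± 0.03 (SE, limma adjusted p = 0.77). Without quantile normalization, only Cox7a1, Cox6a2 and Cox6b1 probe 1 of complex IV kept a called negative slope, and Cox5a (0.13) had a called positive one. Of the Fo probes, only Atp5g2 and Atp5mpl kept a called negative slope.

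The steepest slope was that of Cox7a1, -0.67 ± 0.05 (SE, limma adjusted p = 2.7e-13). That of Atp5g2 was -0.58 ± 0.04 (adjusted p = 4.3e-14) and that of Cox6a2 -0.58 ± 0.05 (adjusted p = 5.0e-12). Without quantile normalization these slopes were -0.23, -0.29 and -0.20, all called, where 1.43% of all probes had a called negative slope and 90.5% a called positive one. Cox6b1 probe 1 (-0.15) and Atp5mpl (-0.12) completed the 5 members with called negative slopes in that setting. Relative to the median of each array, the levels of these 5 probes fell where those of most other tested probes rose. The 10 members with called positive slopes in that setting were Uqcrc1, Uqcrc2, Uqcrb, Uqcrh, Cox5a, Atp5a1, Atp5b, Atp5c1, Atp5d and Atp5j probe 1, of which Uqcrc2, Atp5d, Atp5a1 and Atp5j probe 1 lay above the median of all probes.

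Steep slopes were also found for Atp5md probe 1 (-0.55), Cox7a2 (-0.55) and Atp5k (-0.54), whose values without quantile normalization were -0.11, -0.13 and -0.12 and were not called. Cox4i2 had a slope of -0.41 with quantile normalization and of 0.0074 without, or -0.39 relative to the median of all probes. At the flat end of complex IV, Cox4i1 had a slope of -0.06 ± 0.02 (SE, adjusted p = 0.01), and 0.0021 without quantile normalization. Atp5g3 had slopes of -0.09 and 0.0003. The slope of Atp5g1, the third gene for subunit c, was -0.27.

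Atp5b had a slope of 0.13 ± 0.02 (SE, limma adjusted p = 6.2e-06). Relative to the median of all probes it lay 0.10 above with quantile normalization and 0.18 below without (relative slope -0.18), so its direction turned with the scaling. Uqcrc2 had a slope of 0.13 ± 0.04 (adjusted p = 0.0019) and lay above the median under both, by 0.11 and 0.03. Atp5d had a slope of 0.10 ± 0.03 (adjusted p = 0.01) and lay above by 0.07 and 0.02. Without the 6 arrays under 7000 detected probes, the slope of Atp5d was -0.04, opposite in sign and not called, while Uqcrc2 (0.22) and Atp5b (0.11) were still called. In that subset 18 members had a called negative slope, beside 25% of all probes, and 24.4% had a positive one.

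**Figure D3:**
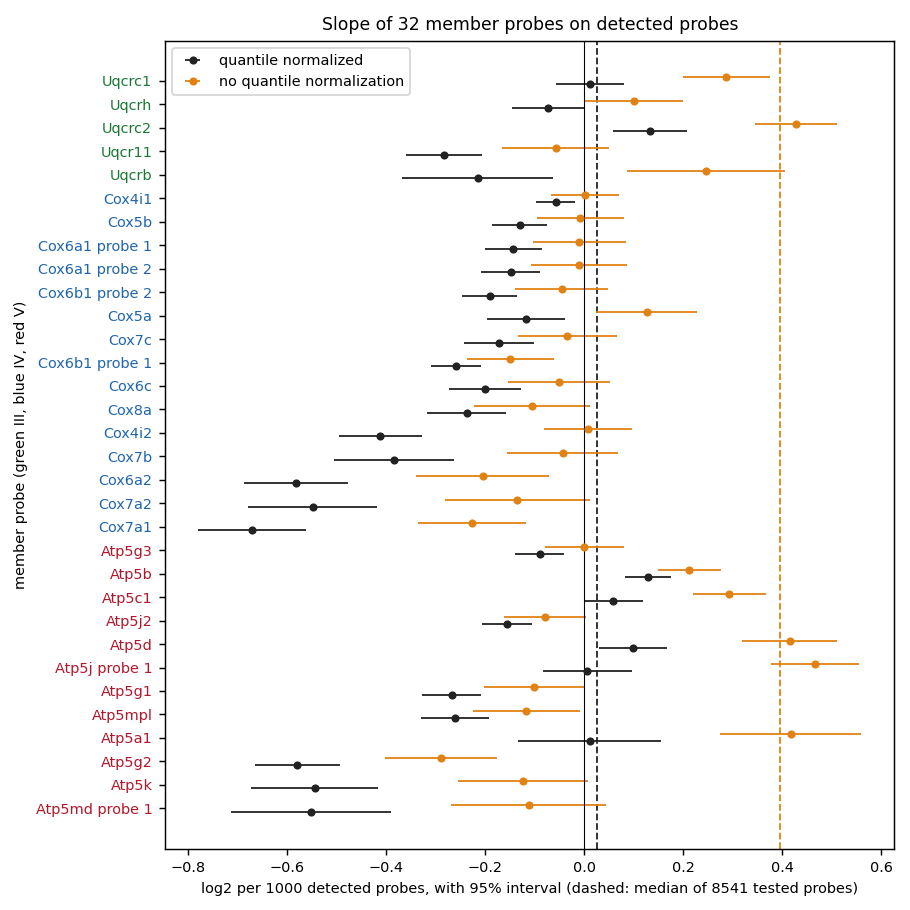
Slope of each of the 32 member probes on the number of detected probes (log2 per 1000 probes, with 95% intervals), with quantile normalization in black and without in orange, and the medians of all 8541 tested probes as dashed lines (0.03 and 0.40). Cox7a1, Cox6a2 and Atp5g2 lie farthest to the left in both, and 28 of 32 members lie left of the dashed line of their setting.

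**Figure D4:**
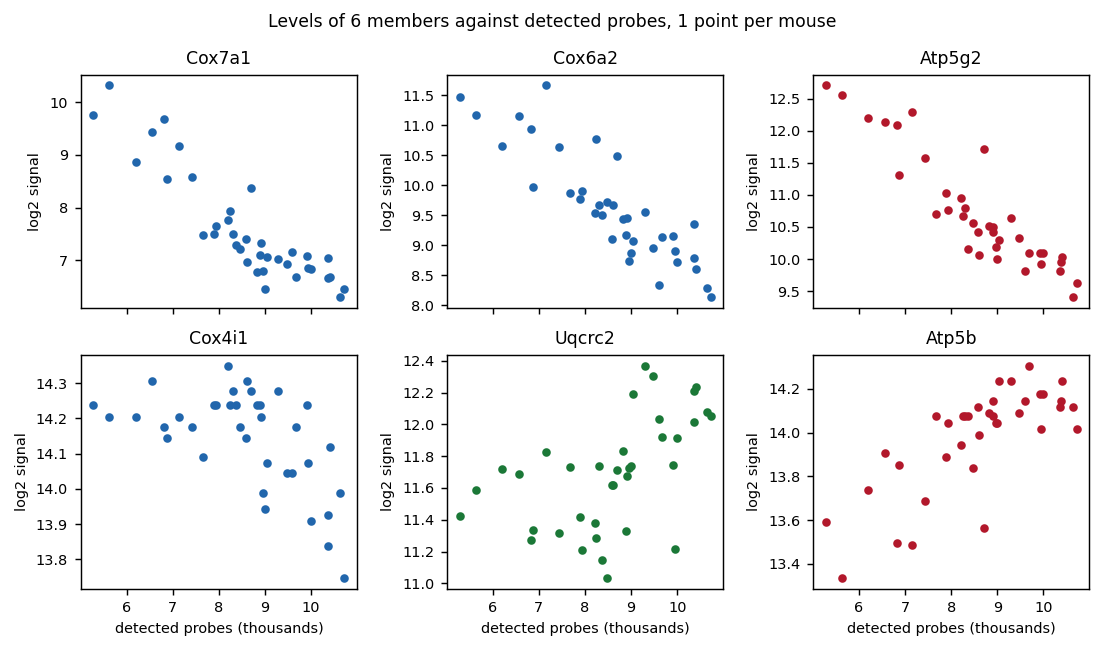
Log2 signal of 6 members against the number of detected probes on the array, 1 point per mouse. Cox7a1, Cox6a2 and Atp5g2 are highest on arrays with few detected probes, Cox4i1 stays between 13.75 and 14.35, and Uqcrc2 and Atp5b are higher on arrays with many.

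Many members are bright probes, so the slopes were also set beside those of probes of the same mean level, an alternative chosen after seeing the data. With quantile normalization, of the 15 members among the 191 brightest probes, 13 had a called negative slope, against 35.6% of those probes. Their median slope was -0.16, and that of all probes at this level was 0.03. Below a mean level of 8, 6 of 8 members had a called negative slope, against 29.7% of 4828 probes. Of the 6 members among the 487 probes of the next lower range, which includes Uqcrc1, Uqcrc2, Atp5c1 and Atp5d, 2 had one, against 27.7%. Cox6a2, Atp5g2 and Cox7a2, at mean levels between 8 and 11, all had one, against 28.9%.

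For members whose mice fell into groups, the slope over all mice mixes a step with a trend. Within the 28 mice of lower Cox7a1 the slope was -0.35 ± 0.06 (SE), and within the 9 of higher Cox7a1 it was -0.49 ± 0.16. Within the groups of Atp5g1 the slopes were -0.12 and -0.12. For Cox7a2 they were -0.18 in 26 mice and -0.27 in 11, and for Atp5k -0.22 and -0.22. Within the groups of Atp5md probe 1 they were -0.12 ± 0.10 and -0.13 ± 0.09, and within those of Cox7b -0.08 ± 0.07 and -0.03 ± 0.12. These within-group values are descriptions, since the levels defined the groups.

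Within the set of 26 arrays, 24 members had a called negative slope (26.6% of all probes) and 3 a positive one (35.7%). Within the set of 11, with 6877 to 10407 detected probes, 5 members had a called negative slope, against 13.2% of all probes: Cox4i2 (-0.40), Cox7a1 (-0.41), Atp5g2 (-0.36), Cox6a2 (-0.32) and Cox6b1 probe 1 (-0.18). Uqcrc2 had a called positive slope (0.25), where 12.8% of all probes did. The difference of slopes between the sets was called for no member and for no probe (0% of 8540), with 9 members and 1069 of all probes at an unadjusted p under 0.05.

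Other genes of the chain were counted against the same background of 29.4% negative and 37.6% positive calls. Complex I was taken as all genes whose symbol starts with Nduf, which brings in the assembly factors Ndufaf1, Ndufaf3, Ndufaf4 and Ndufaf5. Of 35 detected probes on this list, 24 had a called negative and 2 a called positive slope with quantile normalization. Their median was -0.19. Without it 3 were negative and 15 positive, and their median lay below that of all probes (relative slope -0.32). Ndufa3 (-0.40) and Ndufv3 (-0.29), small accessory subunits, were among the negative ones. Ndufv1 (-0.0042) and Ndufs8 (0.02), which carry redox centres, were not called, and the accessory subunits Ndufa10 (0.25) and Ndufa8 (0.10) were positive. In complex II, Sdhc, a membrane anchor, had a slope of -0.34 and Sdhb, the iron-sulfur subunit, one of 0.26, both called. Cyc1, cytochrome c1 of complex III, had a slope of 0.06 and was not called.

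Of 20 detected probes on the list of assembly and accessory factors, 12 had a called negative and 6 a called positive slope with quantile normalization, and 0 and 12 without it. Coa3 (-0.30), Cox14 (-0.30) and Cmc1 (-0.35), small factors of complex IV assembly, were negative. Cox10 (0.31), which makes heme for complex IV, Surf1 (0.13) and Atpaf2 (0.27), a chaperone of F1, were positive. Pet112l, on the list by its old name and known for tRNA charging in mitochondria, contributed 3 probes, of which 2 were positive and 1 negative. Among 7 detected probes of regulators, Ppargc1b (0.47) and Tfam (0.37) were positive, Nrf1 (-0.16) was negative, and Ppargc1a (0.07) and Esrra (-0.05) were not called.

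Because Cox6a2 and Cox7a1 are muscle forms elsewhere, muscle markers were examined. Of the 11 genes listed, 10 were on the array, and Ckm, Ckmt2, Mb, Myh4 and Myh6 were detected on no array. The summed signal of the muscle probes ranged from 223 to 678 over the mice. Slopes on detected probes are given here with quantile normalization, where 29.4% of all tested probes had a called negative one. Myl2 (-0.48), Acta1 (-0.33) and Tnni3 (-0.19) had one and Tnnt2 (-0.01) did not. Of these dim probes, Tnni3 was detected on 24 arrays and Myl2 on 35. Of the mural cell markers, Higd1b (-0.49), Cspg4 (-0.28), Pdgfrb (-0.22) and Vtn (-0.10) had called negative slopes and Acta2, smooth muscle actin, one of 0.0005, not called, while Abcc9 and Tagln were detected on no array. The summed signal of the mural probes ranged from 764 to 4558. Choroid plexus markers gave 2 called negative slopes among 4 probes, with a summed signal of 132 to 18754. The part of these cells in the members' levels was not tested.

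Parvalbumin interneurons are known to carry Cox6a2 in mouse brain. Pvalb, their marker, was detected on all 37 arrays, and its correlation with Cox6a2 over 37 mice was r = 0.91 (rho = 0.85, permutation p = 1e-05 for each, the smallest 100000 permutations can give, adjusted p = 3e-05 and 6e-05 over 12 correlations). Without the 2 mice farthest from the median of Cox6a2, r was 0.87. Within the set of 26 arrays r was 0.94 (adjusted permutation p = 4e-05), and within the set of 11 it was 0.62 (adjusted permutation p = 0.18). With each chip centred on its mean, r was 0.87, and without quantile normalization 0.82.

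Pvalb also had a slope on detected probes of -0.42 ± 0.04 (SE, limma adjusted p = 9.4e-13), like Cox6a2. Other genes of these interneurons differed in direction. Both Gad1 probes (0.16 and 0.16) and Kcnc1 (0.18) had called positive slopes, Kcnc2 (-0.22) had a negative one, and Gad2 and Syt2 were detected on no array. The summed signal of this list ranged from 2895 to 13703. The part of the array in the correlation was not tested apart from the chip and the set.

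Levels of paralogs were positively correlated over mice in most of the planned pairs. Cox6a1 and Cox6a2 gave r = 0.77 over 37 mice (rho = 0.70, adjusted permutation p = 3e-05 and 6e-05), 0.70 without the 2 farthest mice, 0.78 within the set of 26 and 0.56 (adjusted permutation p = 0.19) within the set of 11. Cox4i1 and Cox4i2 gave r = 0.56 (rho = 0.56, adjusted permutation p = 0.00065 and 0.00094), 0.51 without the 2 farthest mice, 0.61 within the set of 26 and 0.40 (adjusted permutation p = 0.45) within the set of 11. Atp5g2 and Atp5g3 gave r = 0.77 (rho = 0.63, adjusted permutation p = 3e-05 and 0.00027), 0.75 without the 2 farthest mice, 0.91 within the set of 26 and 0.14 (adjusted permutation p = 0.78) within the set of 11. With the authors' normalized values, Atp5g2 and Atp5g3 gave r = 0.36 in 29 mice and 0.61 in 8 (adjusted permutation p = 0.08 and 0.13). Cox4i1 and Cox4i2 then gave r = 0.37 and rho = 0.43 over 37 mice (adjusted permutation p = 0.054 and 0.025). For Cox6a1 and Cox6a2, r was 0.80 with those values. Without quantile normalization, r was 0.68 for Cox6a1 and Cox6a2 and 0.53 for Cox4i1 and Cox4i2. Atp5g2 and Atp5g3 then gave 0.41 in 30 mice and 0.69 in 7 (adjusted permutation p = 0.03 and 0.08). No pair of paralogs had a negative correlation past the threshold. With quantile normalization, all genes of the paralog pairs also had called negative slopes on detected probes. Correlations over all probe pairs were not computed as a background, and the part of the array was not tested.

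Where mice fell into groups, correlations were computed within them. Atp5g1 and Atp5g2 gave r = 0.76 (rho = 0.72, adjusted permutation p = 3e-05 and 0.00024) in the 28 lower mice and r = 0.83 (rho = 0.81, adjusted permutation p = 0.01 and 0.02) in the 9 higher ones. Cox7a1 and Cox7a2 gave r = 0.46 (rho = 0.48, adjusted permutation p = 0.03 and 0.02) in 26 mice, or 0.36 without the 2 farthest, and r = 0.63 (adjusted permutation p = 0.09) in the 9 higher mice. Atp5g1 and Atp5g3 gave r = 0.37 (rho = 0.45, adjusted permutation p = 0.08 and 0.02) in the 28 lower mice, r = 0.30 (adjusted permutation p = 0.44) in the 9 higher ones, and r = -0.26 (adjusted permutation p = 0.76) in 10 mice within the set of 11. For Cox7a1 with Cox7a2 and Atp5g1 with Atp5g3, no groups were found without quantile normalization or with each chip centred. Without quantile normalization, r over 37 mice was 0.69 and 0.87 in that order (adjusted permutation p = 2.5e-05 for each). With each chip centred, r over 36 mice was 0.92 and 0.80 (adjusted permutation p = 1e-05 for each). Cox7a1 with Acta2 gave r = 0.27 (adjusted permutation p = 0.18) in 28 mice, below the threshold.

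Probes of 1 gene were compared in the same way. Both Cox6b1 probes gave r = 0.94 over 37 mice (rho = 0.91, permutation p = 1e-05), 0.97 within the set of 26 and 0.67 within the set of 11. Both Cox6a1 probes gave r = 0.85 in 24 lower mice and 0.90 in 13 higher mice. The second probes of Atp5j and Atp5md were never detected, so their pairs (r = -0.03 over 37 mice for Atp5j) compare a signal with background.

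The last comparison was with the level of Ly6a, a cell surface protein encoded on chromosome 15 that the study followed as its candidate. Its probe carries no platform gene name and was taken by the probe number that the study gives. Ly6a ranged from 7.53 to 11.85 with a median of 9.70, was detected on all 37 arrays and itself had a slope of -0.47 ± 0.09 (SE, limma adjusted p = 8.3e-06) on the number of detected probes. Members had a called positive slope on Ly6a, in log2 per log2 unit, in 24 of 32 cases, where 24.1% of all 8540 tested probes had a called positive slope. Only Atp5b (-0.19) and Atp5d (-0.13) had called negative slopes, where 32.5% of all probes did. The median was 0.23 over the members and -0.04 over all probes.

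The steepest members were again Cox7a1 (0.79 ± 0.11, SE, limma adjusted p = 2.1e-06), Cox6a2 (0.70), Atp5g2 (0.68), Atp5md probe 1 (0.67), Cox7a2 (0.66) and Atp5k (0.60). Without quantile normalization, 16 members had a called positive slope, where 3.92% of all probes did, and none a negative one. With the number of detected probes in the model, no member was called, and 8 of all probes were (0.0937%), 6 with a positive (0.0703%) and 2 with a negative slope (0.0234%). In that model 18 members and 1964 of all 8540 probes had an unadjusted p under 0.05, and the median slope of the 32 members was 0.14. Cox7a1 had 0.29 ± 0.09 (SE, adjusted p = 0.08), Atp5g2 0.25 ± 0.07 (adjusted p = 0.08), Cox8a 0.23 ± 0.06 (adjusted p = 0.08) and Atp5b -0.12 ± 0.04 (adjusted p = 0.09).

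**Figure D5:**
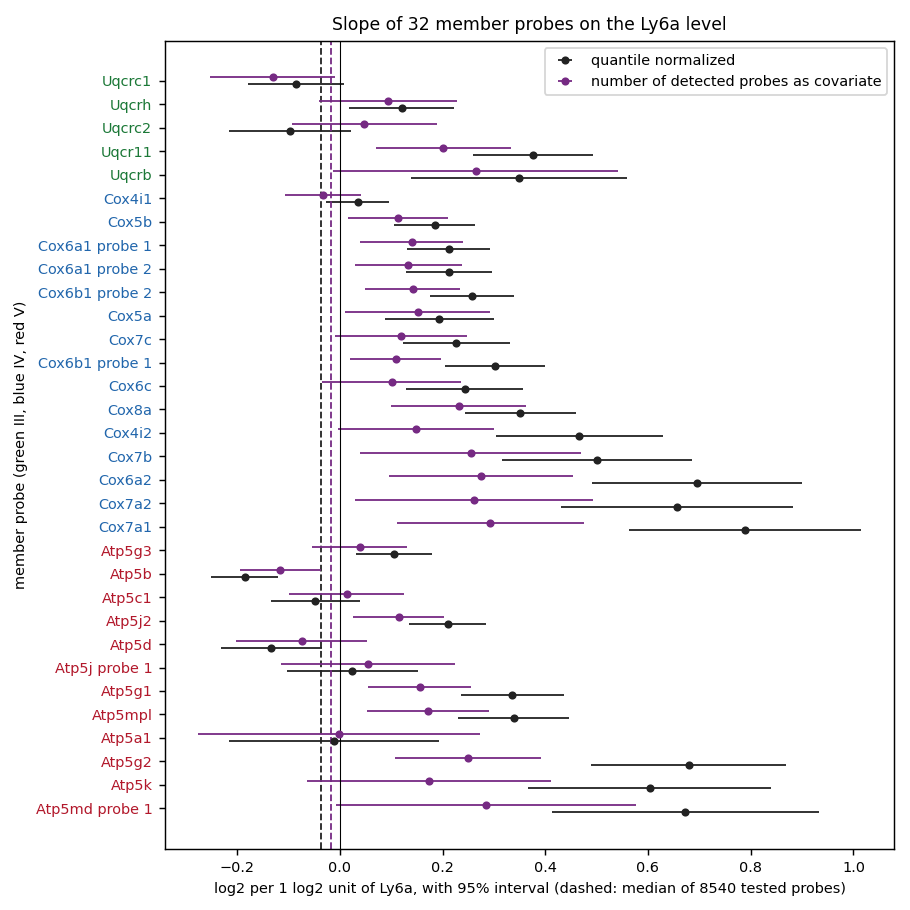
Slope of each of the 32 member probes on the Ly6a level (log2 per log2 unit, with 95% intervals), without further terms in black and with the number of detected probes in the model in purple, and the medians of all 8540 tested probes as dashed lines. The slope of Cox7a1 is 0.79 in the first and 0.29 in the second, and that of Atp5b is below 0 in both.

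Within the set of 26 arrays, where Ly6a ranged from 7.53 to 11.85, 24 members had a called positive slope on Ly6a, beside 22.8% of all probes, and Atp5b and Atp5d a negative one, beside 30.9%. Without the arrays under 7000 detected probes, 20 members had a positive slope (16.9% of all probes) and 1 a negative one (17.8%). Within the set of 11, with a Ly6a range of 8.01 to 10.17, no member and no other probe was called (0%), and 270 probes but no member had an unadjusted p under 0.05. The difference of slopes between the sets was called for no probe (0% of 8540), with 6 members and 899 of all probes at an unadjusted p under 0.05. Cox6c and Atp5g2, which share the chromosome with Ly6a, had slopes of 0.24 and 0.68, within the range of members on other chromosomes.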

How the data were processed

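Left hippocampal RNA of 37 mice was measured with 1 array each. Per the file headers and the study's methods, the deposited signal intensity was extracted and background corrected by the authors in BeadStudio and not normalized between arrays, and 30.84% of signals lay below 0. The deposited detection score was turned into a detection p-value as 1 minus the score. The authors' normalized log2 values (variance stabilized, robust spline) served as an alternative. Of 24620 probes, 24613 were matched to the platform's probe names by rank, and 20984 had 1 gene.

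Signals were background corrected (nec of limma 3.58.1, R 4.3.3, offset 16), quantile normalized and log2 transformed. Without quantile normalization, each array was only centred on its median. Probes detected at p under 0.01 on at least 19 arrays (8541) were tested in limma with Benjamini-Hochberg adjustment over all of them, which was also tested on simulated data. Groups of mice came from mixture models (mclust 6.1.1, BIC gain over 10). Correlations used 100000 permutations, two-sided, within groups of at least 6 mice. Cox7a2l and Ndufa4l2 had no platform name, so their pairs were not run. Members named were, per complex, the 3 with the largest and 2 with the smallest SD, up to 6 with the smallest adjusted p per fit, genes with several probes, paralogs, chromosome 15 genes and undetected members. Members and lists were chosen with earlier results of these data known. Alternatives covered normalization, offset, filter, chip, array set and array quality. Their number and signal over background limit the precision of the arrays.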

Additional observations from a re-analysis of the deposited data

How the results depend on the processing

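The median SD of the members was 0.34 to 0.47 over the 5 alternatives. The order of the SDs and the groups of mice did not hold without quantile normalization. Between chips, 2 members were called without quantile normalization, 1 with the authors' normalized values, 7 of 40 with no detection filter and 3 without the arrays under 7000 detected probes, an alternative chosen after seeing the data. Over all probes the chip calls numbered 154 without quantile normalization, 1480 with no filter, 20 on probes detected on all arrays and 170 without the arrays under 7000.

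On the number of detected probes, members called numbered 10 positive and 5 negative without quantile normalization, and 1 positive and 5 negative within the set of 11 arrays. All probes numbered 7726 positive and 122 negative without quantile normalization, 5002 and 6916 with no filter, and 1097 and 1130 within the set of 11. There were 1183 positive on probes detected on all arrays and 2082 positive without the arrays under 7000. Slopes that turned sign without quantile normalization, past the threshold under either setting, were those of Cox4i1 (0.0021), Uqcrb (0.25), Uqcrh (0.10), Cox4i2 (0.0074), Cox5a (0.13) and Atp5g3 (0.0003). Each stayed below the median slope of all probes, which that setting moved to 0.40. Of the slopes past the threshold over all arrays, within the set of 11 those of Atp5d (-0.0423), Uqcrb (0.15), Cox7c (0.0052), Cox5a (0.0341) and Atp5g3 (0.0121) turned, and without the arrays under 7000 Atp5d did (-0.0415). The cause was not tested.

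On Ly6a, members called numbered 0 positive and 0 negative within the set of 11 and with detected probes as covariate. Negative member calls were 0 without quantile normalization and 1 each without the arrays under 7000 and with the array set as covariate. All probes numbered 335 positive and 0 negative without quantile normalization, 0 and 0 within the set of 11, and 6 and 2 with detected probes as covariate. There were 3765 positive with no filter, 1111 negative on probes detected on all arrays and 1524 negative without the arrays under 7000. Slopes on Ly6a past the threshold over all arrays that turned within the set of 11, which has fewer arrays, were those of Atp5j2 (-0.0258), Atp5d (0.0344), Uqcrh (-0.0799), Cox7c (-0.0144), Cox5a (-0.07) and Atp5g3 (-0.10). The correlation of Cox7a1 with Acta2 was -0.40 without quantile normalization, and that of Cox7a1 with Cox7a2 was -0.21 in 8 mice within the set of 11.

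The difference of slopes between the array sets, the slopes within groups of mice and the comparison with probes of like mean level were also chosen after seeing the data. No call between the array sets appeared under any of the 6 alternatives run. No paired analysis was possible because there was only 1 group of mice. With 1 array per mouse, differences between mice and between arrays cannot be told apart, and dim probes such as Cox7b and Atp5md probe 1 were not detected on every array.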
